A study of Rattus norvegicus with 6 samples.

Results

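Notch signalling genes were examined in injured rat sciatic nerve as a set of 10 genes: the receptors Notch1, Notch2, Notch3 and Notch4, the ligands Jag1, Jag2, Dll1 and Dll4, and the target genes Hes1 and Hey1. They were chosen by symbol, and all 10 were found among the 29884 genes of the deposited count table. The tested libraries came from sciatic nerve of wild type rats with chronic constriction injury (CCI, a neuropathic pain model in which ligatures constrict the nerve) that received PLLA-PCL-RVC, a polymer nerve conduit which the series describes as piezoelectric and which carries ropivacaine, a local anaesthetic (conduit, n = 3). The others came from sciatic nerve of wild type rats with the same injury and no conduit (untreated, n = 3). Both groups carry the injury, so there is no uninjured nerve in the comparison. The conduit was given as a whole, without a group that received the polymer or the anaesthetic alone. Age, sex and time after injury are not given in the sources used here, and neither is the number of animals behind the libraries. The p-values therefore measure library-to-library spread alone, part of which may be technical.

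Notch receptors are membrane proteins that are activated by ligands on a neighbouring cell. Ligand binding exposes the receptor to ADAM10 and then to the gamma-secretase complex, and the released intracellular domain joins the DNA-binding protein RBPJ to switch on genes such as Hes1 and Hey1, which encode transcriptional repressors. In peripheral nerve, work in mice has linked Notch to the formation of immature Schwann cells and to loss of myelin after injury. Notch4 and Dll4 are best known from blood vessel endothelium, and Notch3 from vascular smooth muscle cells and pericytes.

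The promoters of 3 of the pathway genes that changed are shown for what they hold of the RBPJ motif. Hes1 and Notch2 are the members that rose, and Nrarp, a feedback inhibitor of the pathway that is itself a Notch target, fell. Each sequence is the RefSeq window of the GRCr8 assembly that runs from 250 bases before the gene's start to 50 bases after it, read along the gene's own strand, with the core motif TGGGAA (or its reverse complement) in capitals.
Hes1, chr11:84212996-84213295, minus strand: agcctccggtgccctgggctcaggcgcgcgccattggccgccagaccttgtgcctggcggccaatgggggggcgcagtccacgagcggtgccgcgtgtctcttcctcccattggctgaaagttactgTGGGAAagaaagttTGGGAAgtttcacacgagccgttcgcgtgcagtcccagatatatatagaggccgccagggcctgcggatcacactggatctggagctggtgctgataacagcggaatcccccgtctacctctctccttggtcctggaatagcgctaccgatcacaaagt
Notch2, chr2:188299086-188299385, plus strand: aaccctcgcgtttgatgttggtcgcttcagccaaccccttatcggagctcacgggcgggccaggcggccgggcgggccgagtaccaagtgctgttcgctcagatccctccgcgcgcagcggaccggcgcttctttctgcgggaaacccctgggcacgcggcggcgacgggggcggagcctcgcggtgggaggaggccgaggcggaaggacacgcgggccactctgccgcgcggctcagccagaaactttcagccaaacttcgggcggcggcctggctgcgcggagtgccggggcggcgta
Nrarp, chr3:28390495-28390794, plus strand: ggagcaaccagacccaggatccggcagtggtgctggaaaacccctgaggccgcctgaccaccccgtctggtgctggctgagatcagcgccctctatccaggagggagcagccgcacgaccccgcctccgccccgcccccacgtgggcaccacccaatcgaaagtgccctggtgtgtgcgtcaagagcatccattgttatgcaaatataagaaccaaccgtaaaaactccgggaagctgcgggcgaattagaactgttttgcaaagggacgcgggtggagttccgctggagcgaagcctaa
The Hes1 window held 2 TGGGAA matches, which began 123 and 109 bases before the start and lay on the same strand. The first is part of a GTGGGAA match, so the longer motif overlaps the core. The windows of Notch2 and Nrarp held no TGGGAA on either strand. Among 33469 RefSeq promoter windows of the same length, 25.7% held at least 1 TGGGAA, 3.85% held 2 or more, and 6.29% held GTGGGAA. Promoter windows were matched for 8 of the 10 members, and 4 of these 8 held TGGGAA, namely those of Notch3, Notch4, Dll1 and Hes1. Notch4 and Dll1, which did not pass the test of expression, also held 2 matches each, and Dll1 also held GTGGGAA. Matches did not go with direction among other pathway genes. Of those called lower, Lfng and Poglut1 held 2 TGGGAA matches each and also GTGGGAA, while Rfng, Aph1a, Dlk2 and Tle4 held no TGGGAA. The windows of Rbpj, also called lower, held 1 and 2 matches. Of those called higher, Mib1 held 2 matches and GTGGGAA, while Adam10, Tle1 and Mib2 held no TGGGAA. Such matches describe letters in these windows, not binding.

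Libraries held 38401951 to 42225086 counts. Spearman correlations of log2 CPM (counts scaled to library size) ran from 0.965 to 0.991 within groups and from 0.866 to 0.911 between them. The labels carry 5 batch numbers, none of which holds both groups. Batch and treatment thus cannot be told apart in any result here, and no within-batch value of the comparison exists. Conduit libraries each have a batch number of their own, while untreated replicates 1 and 2 share a batch number. Spread within the groups may therefore hold batch differences to an unlike extent. Summed Schwann cell markers were 153659 to 201079 CPM in conduit libraries and 11931 to 26698 CPM in untreated libraries, and 9 of these 10 markers were called higher. The tenth, Ngfr, a receptor of immature and repair Schwann cells, was lower, at 48.6 ± 15.1 CPM in conduit libraries and 597 ± 125 CPM in untreated libraries (SD, n = 3 each), a log2 fold change of -3.62 (edgeR adjusted p = 0.000139). In bulk nerve, fewer cells of a type and less RNA per cell cannot be told apart. The 10 skeletal muscle markers summed to 19.0 to 21.0 CPM in conduit libraries and to 10283, 75.5 and 10.4 CPM in untreated libraries 1, 2 and 3. Muscle transcripts were thus plentiful in untreated replicate 1, and replicate 2 held some. There Acta1, skeletal muscle actin, was at 35.0 CPM, against 0.660 to 3.14 CPM in conduit libraries. Of 9 muscle markers tested, 6 were called lower and 1, Myh7, higher. Myh7 was at 13.1, 12.5 and 8.77 CPM in conduit libraries, the largest of the list there, and 0.390, 0.101 and 0.276 CPM in untreated libraries. Pvalb was at 0.788 CPM in untreated replicate 2, below its 2.02 to 2.91 CPM in conduit libraries.

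Of the 10 Notch genes, 2 were higher in conduit nerves, Hes1 and Notch2, and 0 were lower (edgeR quasi-likelihood test, Benjamini-Hochberg adjusted p under 0.05 over all genes tested). Over all 15464 genes tested, 50.2% were called, with 24% higher and 26.2% lower. Whether the members differ from other genes in this was not tested. Notch4, on the lower side, had an unadjusted edgeR p of 0.0349 and did not pass after adjustment. DESeq2 called 0 members lower, and limma on FPKM called 1, Notch4. Over all genes, DESeq2 called 4182 of 15464 lower, and limma on log2(FPKM + 1) called 6020 of 13161 lower. The median log2 fold change (conduit minus untreated) of the members was 0.08, beside -0.04 over all genes tested. In size alone, without regard to direction, the median was 0.17 for the members and 0.64 over all genes tested. A fold change of 2 or more was reached by 1 member, Hes1, and by 33.7% of all genes tested. All 10 passed the filter on low counts.

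These folds depend on how the libraries are scaled. TMM (trimmed mean of M-values, which sets the bulk of genes to no change) gave scaling factors of 0.8523 to 0.9045 in conduit libraries and 1.117 to 1.183 in untreated libraries. Scaling by library totals alone moved the median of all genes by -0.39 on the log2 scale and every member by a like amount. Under it 1 member was called higher (Hes1) and 1 lower (Notch4). Over all 15464 genes tested, 2291 were then higher and 6554 lower. Of all called genes, 25.9% were then higher, against 47.8% with TMM. Values are in TMM-scaled CPM below unless FPKM is named.

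**Figure D1:**
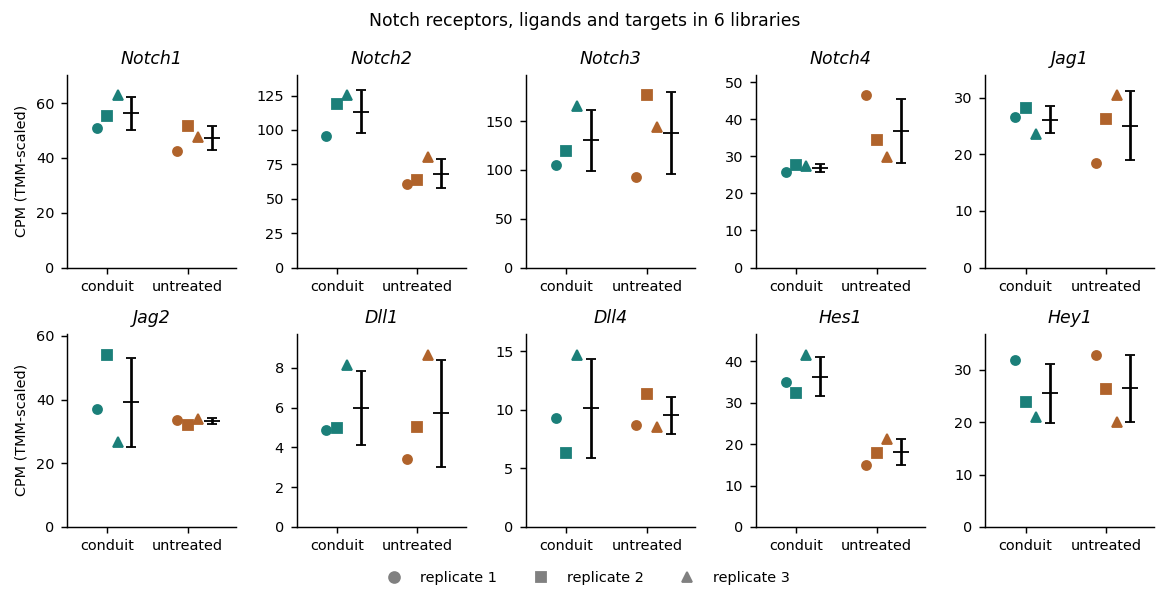
Levels of the 10 Notch genes in TMM-scaled CPM (vertical axes, from 0) in 3 conduit and 3 untreated libraries. Points are libraries with 1 marker shape per replicate number, and bars show mean ± SD. Hes1 and Notch2 are the panels in which every conduit library lies above every untreated library, and in the Notch4 panel every conduit library lies below.

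Among the receptors, Notch2 was the one that rose. Notch2 is a broadly expressed receptor. It was at 95.8, 119 and 125 CPM in conduit replicates 1, 2 and 3, against 60.6, 63.4 and 80.1 CPM in untreated replicates 1, 2 and 3. The lowest conduit library lay above the highest untreated one, as was the case for 29.5% of all genes tested. Means were 113 ± 15.6 CPM in conduit nerves and 68.0 ± 10.6 CPM in untreated nerves (SD, n = 3 each), a log2 fold change of 0.74 ± 0.16 SE (edgeR adjusted p = 0.00794), or 1.67-fold. With library totals the log2 fold change was 0.35 and did not pass (edgeR adjusted p = 0.109).

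Notch1, a receptor studied in mouse Schwann cells, had 51.0, 55.3 and 62.9 CPM in the conduit libraries and 42.6, 51.6 and 47.5 CPM in the untreated libraries. The groups overlapped in 1 pair of libraries, untreated replicate 2 lying just above conduit replicate 1. Its log2 fold change was 0.25 with a 95% interval from -0.05 to 0.56 (edgeR adjusted p = 0.147), so a doubling lies outside the interval at this scaling. With library totals the value was -0.13.

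Notch3, the mural cell receptor, was at 105, 119 and 166 CPM in conduit libraries and at 93.0, 177 and 144 CPM in untreated libraries. Both groups spread widely, and the untreated libraries hold both the lowest and the highest value. The log2 fold change was -0.08 (95% interval -0.71 to 0.54, edgeR adjusted p = 0.816). It turned to 0.06 without conduit replicate 1 and 0.14 without untreated replicate 2. The summed level of 10 mural cell markers was 1206 to 1537 CPM in conduit libraries and 1290 to 2158 CPM in untreated libraries. Of those markers 1 was called higher and 2 lower, and none was at 0 in all libraries. One of the lower ones is Des, which skeletal muscle also expresses, at 73.7 to 103 CPM in conduit libraries and at 1150, 140 and 169 CPM in untreated libraries 1, 2 and 3. Without Des, a choice made after its values were seen, the sum was 1102 to 1448 CPM in conduit libraries and 1008 to 1422 CPM in untreated libraries.

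Notch4, the endothelial receptor, had 25.8, 27.8 and 27.4 CPM in conduit libraries and 46.5, 34.3 and 29.9 CPM in untreated libraries. All conduit libraries lay below all untreated libraries, as was the case for 32.2% of all genes tested, but the untreated libraries differed among themselves by more than the gap between the groups. The log2 fold change was -0.45 ± 0.18 SE (95% interval -0.86 to -0.04), and it did not pass (edgeR adjusted p = 0.0655). The call depends on scaling and on single libraries. With library totals Notch4 was at -0.84 (edgeR adjusted p = 0.00496), without untreated replicate 3 at -0.58 (0.0310), and without untreated replicate 1, which has its highest level and the muscle transcripts, at -0.25 (0.165). Endothelial markers moved in both directions: of 14, 3 were called higher and 4 lower, with a median log2 fold change of -0.33. Their sum was 1129 to 1393 CPM in conduit libraries and 1346 to 1705 CPM in untreated libraries, and no marker was at 0 in all libraries. The part of either in the Notch4 values was not tested.

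**Figure D2:**
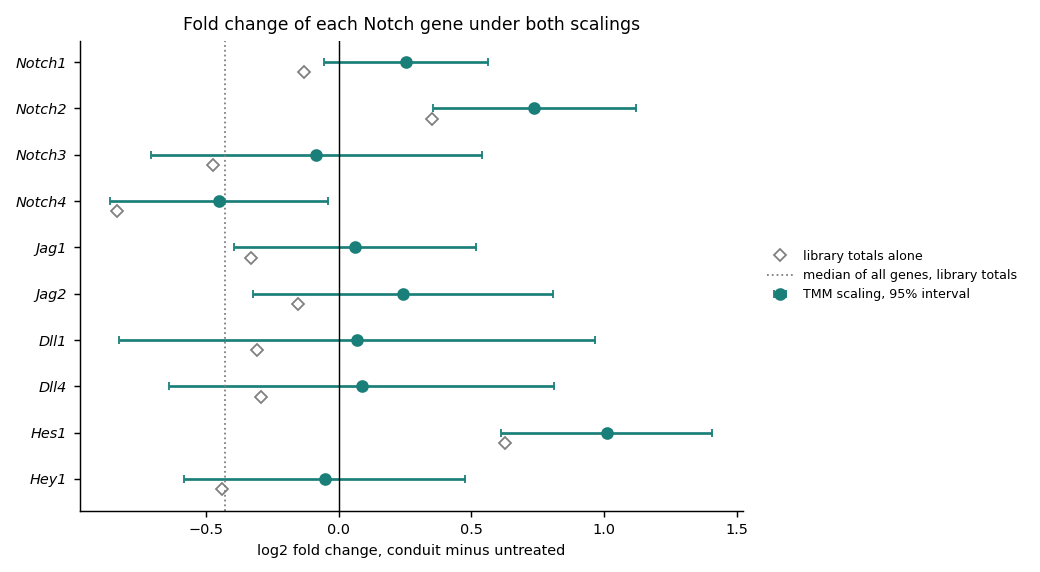
Log2 fold change (conduit minus untreated, horizontal axis) of each Notch gene, with filled points and 95% intervals from edgeR with TMM scaling and open diamonds for scaling by library totals alone. The dotted line marks the median of all genes under library totals (-0.43), and only Hes1, Notch2 and Notch4 have TMM intervals that leave out 0.

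No ligand passed the test in either direction. Jag1, which encodes a ligand of the Jagged type, was at 26.7, 28.2 and 23.5 CPM in conduit libraries and 18.5, 26.2 and 30.4 CPM in untreated libraries, with the conduit values inside the untreated range. Its log2 fold change was 0.06 (95% interval -0.39 to 0.52, edgeR adjusted p = 0.817), and -0.33 with library totals. Jag2, the other Jagged ligand, was at 36.9, 54.1 and 26.5 CPM in conduit libraries and 33.5, 32.0 and 33.8 CPM in untreated libraries. The untreated libraries were close together and the conduit libraries spanned both sides of them. The log2 fold change of Jag2 was 0.24 (95% interval -0.32 to 0.81, edgeR adjusted p = 0.432) and -0.04 without conduit replicate 2.

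The Delta-like ligands had the lowest FPKM of the 10 genes in both groups. Dll1 was at 4.87, 4.97 and 8.15 CPM in conduit libraries, against 3.42, 5.05 and 8.68 CPM in untreated libraries, so the groups covered much the same range. Its 95% interval ran from -0.83 to 0.97 on the log2 scale, the widest of the 10 genes. Differences of nearly 2-fold in either direction thus lie inside the interval. Dll4, which directs vessel sprouting, was at 9.29, 6.33 and 14.7 CPM in conduit libraries and 8.72, 11.3 and 8.54 CPM in untreated libraries. Conduit libraries held both its lowest and its highest value, and the log2 fold change was 0.09 (95% interval -0.64 to 0.81, edgeR adjusted p = 0.835). In conduit replicate 2 Jag2 was highest and Dll4 lowest of all 6 libraries, and in conduit replicate 3 it was the reverse, so these ligands varied in opposite ways within the conduit group.

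The target genes differed. Hes1, a basic helix-loop-helix repressor that is switched on by Notch and also by other signals, had 35.0, 32.4 and 41.7 CPM in conduit libraries, against 15.0, 17.9 and 21.2 CPM in untreated libraries. Every conduit library was above every untreated library, as for Notch2. Means were 36.3 ± 4.80 CPM in conduit nerves and 18.0 ± 3.12 CPM in untreated nerves (SD, n = 3 each). The log2 fold change was 1.01 ± 0.17 SE (edgeR adjusted p = 0.00241), a 2.02-fold difference. It was called under each of the 15 alternatives tried, at 0.59 to 1.15, the lowest with limma on log2(FPKM + 1). Of all genes tested, 33.3% had a larger fold change in either direction.

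Hey1, a related repressor downstream of Notch in vessels and other tissues, was at 31.8, 23.8 and 20.9 CPM in conduit libraries and 32.9, 26.3 and 20.1 CPM in untreated libraries. The ranges nearly coincide, and the log2 fold change was -0.05 (95% interval -0.58 to 0.48, edgeR adjusted p = 0.866). The ratio of Hes1 to Hey1 FPKM, which does not depend on library scaling, was 1.61, 1.99 and 2.91 in conduit libraries and 0.666, 0.993 and 1.54 in untreated libraries. The groups did not overlap in this ratio, which was formed after both genes' values were seen and has no test. The gap, from 1.54 to 1.61, was smaller than the spread within either group.

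Levels were compared between genes per length, with the deposited FPKM (fragments per kilobase of gene, scaled by library totals). In conduit nerves Hes1 was highest at 18.8 ± 3.07 FPKM, followed by Notch3 (14.2 ± 3.88 FPKM), Notch2 (9.26 ± 1.42 FPKM), Hey1 (8.96 ± 1.89 FPKM), Jag2 (6.25 ± 2.06 FPKM), Notch1 (4.68 ± 0.628 FPKM), Jag1 (4.07 ± 0.248 FPKM), Notch4 (3.54 ± 0.184 FPKM), Dll4 (2.56 ± 1.16 FPKM) and Dll1 (1.69 ± 0.581 FPKM; SD, n = 3). Along this order, libraries of neighbouring genes did not overlap between Notch3 and Notch2 and between Jag1 and Notch4, and overlapped at each other step. In untreated nerves the order began with Notch3 at 19.7 ± 6.56 FPKM, then Hey1 at 12.2 ± 2.82 FPKM and Hes1 at 12.1 ± 2.17 FPKM. Notch2 (7.25 ± 1.10 FPKM), Jag2 (6.95 ± 0.0803 FPKM) and Notch4 (6.31 ± 1.37 FPKM) came next, then Notch1 (5.13 ± 0.641 FPKM), Jag1 (5.12 ± 1.29 FPKM), Dll4 (3.13 ± 0.610 FPKM) and Dll1 (2.10 ± 0.976 FPKM). There the only step without overlap lay between Hes1 and Notch2.

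As a share of the 4 receptors' summed FPKM, which is also free of library scaling, Notch2 made up 29.1, 31.4 and 27.6% in conduit libraries, against 20.0, 15.6 and 21.7% in untreated libraries. The groups did not overlap. Notch3 held the largest share in every library, at 42.0 to 48.7% in conduit nerves and 41.0 to 57.9% in untreated nerves. Notch1 made up 14.1 to 15.7% in conduit nerves and 12.9 to 14.3% in untreated nerves. Notch4 made up 9.71 to 12.6% in conduit nerves and 13.0 to 24.7% in untreated nerves, the top value again in untreated replicate 1. The ratio of Notch2 to Notch4 FPKM was 2.31, 2.66 and 2.84 in conduit libraries and 0.809, 1.15 and 1.67 in untreated libraries. It sets the receptor called higher over the receptor whose conduit libraries all lay below the untreated ones. Its separation thus adds nothing to those values. Among the ligands Jag2 made up 30.6 to 54.1% of summed FPKM in conduit nerves and 36.8 to 47.2% in untreated nerves. The ranges of the 4 ligand shares overlapped between the groups for each ligand. These shares and the ratio of Notch2 to Notch4 are a description without a test.

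**Figure D3:**
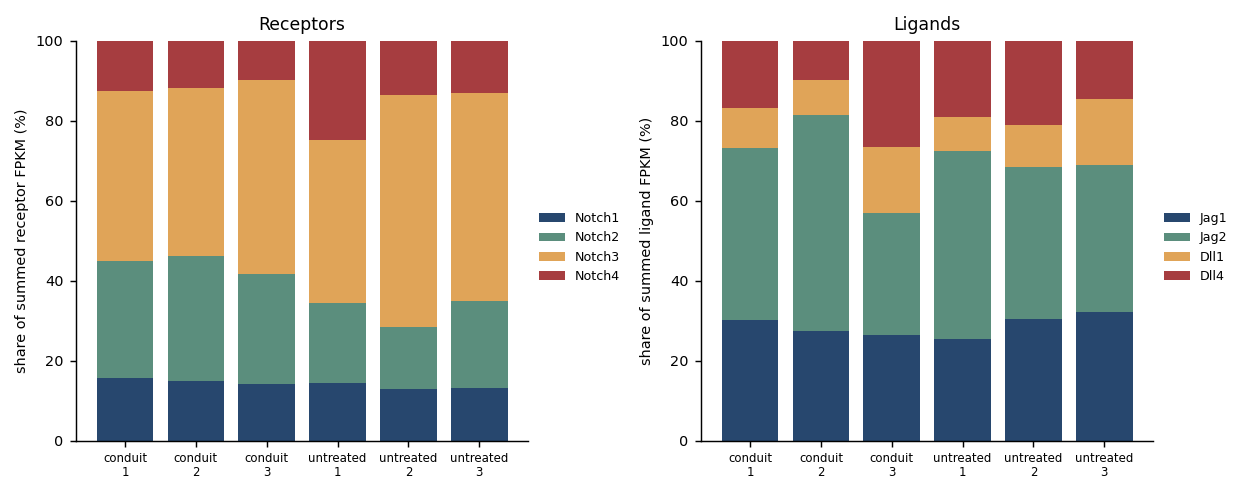
Share of each receptor in summed receptor FPKM (left) and of each ligand in summed ligand FPKM (right) in percent, by library, conduit libraries first. The Notch2 segment is 27.6 to 31.4% in conduit libraries and 15.6 to 21.7% in untreated libraries, while the ligand segments vary as much within as between groups.

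Beyond the 10 members, 62 further pathway genes were grouped by role. Of the 59 that were tested, 13 were higher, 16 were lower and 30 did not pass, beside 24% and 26.2% of all genes tested, and their median log2 fold change was 0.00. With library totals the split was 8 higher and 23 lower, beside 2291 higher and 6554 lower of all 15464 genes tested. Markers of other cells moved as well. All 12 macrophage markers were lower, summing to 468 to 839 CPM in conduit libraries and 2799 to 3577 CPM in untreated libraries, and all 10 proliferation markers were lower, at 14.9 to 27.0 CPM in conduit libraries and 278 to 378 CPM in untreated libraries. No marker of either list was at 0 in all libraries. The part of these cells in the changes below was not tested.

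Rbpj, the DNA-binding partner of all Notch receptors, fell. It was at 43.1, 51.6 and 56.1 CPM in conduit libraries, against 115, 186 and 122 CPM in untreated libraries. No libraries overlapped, and the log2 fold change was -1.49 ± 0.21 SE (edgeR adjusted p = 0.00121), 2.80-fold lower in conduit nerves. It was the only 1 of 7 nuclear complex genes to pass, beside 50.2% of all genes tested. The other 6, among them the mastermind coactivators, did not pass.

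All 3 Fringe genes, whose enzymes extend sugars on Notch and alter which ligands it responds to, were lower. Lfng was at 29.5, 29.2 and 49.0 CPM in conduit libraries, against 95.9, 142 and 105 CPM in untreated libraries, with no overlap and a log2 fold change of -1.67 ± 0.25 SE (edgeR adjusted p = 0.00148). Mfng was at -0.93 ± 0.13 SE (0.000950) and Rfng, outside the naming rule and added after its values were seen, at -0.57 ± 0.14 SE (0.0115). Rfng lost its call without conduit replicate 3, at a log2 fold change of -0.50 (edgeR adjusted p = 0.0510). Poglut1, which adds glucose to Notch repeats, fell by 0.71 ± 0.11 SE on the log2 scale (edgeR adjusted p = 0.00169). In all, 4 of 7 glycosyltransferase genes fell and 0 rose, beside 26.2% lower and 24% higher over all genes tested. The remaining 3 did not pass. Among them Gxylt2, a xylosyltransferase named here after its values were seen, was at 19.3, 115 and 35.0 CPM in conduit libraries and 12.7, 14.4 and 30.5 CPM in untreated libraries, the groups overlapping and conduit replicate 2 far above the rest. Its log2 fold change was 1.56 (95% interval 0.016 to 3.10, edgeR adjusted p = 0.0857), and it was 0.52 without conduit replicate 2 (0.375) and 2.00 without conduit replicate 1 (0.0323).

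Receptor processing genes moved in both directions, with 3 of 9 higher and 4 lower, beside 24% and 26.2% of all genes tested. Adam10, the protease that makes the ligand-dependent cut, was at 247, 250 and 252 CPM in conduit libraries, against 63.4, 112 and 85.0 CPM in untreated libraries. The conduit libraries were nearly equal and all above the untreated ones, with a log2 fold change of 1.52 ± 0.21 SE (edgeR adjusted p = 0.00103). Furin, the protease that cleaves Notch in the secretory pathway, fell (-1.03 ± 0.16 SE, edgeR adjusted p = 0.00164), at 50.6 to 64.9 CPM in conduit libraries and 106 to 140 CPM in untreated libraries. Aph1a, a gamma-secretase subunit, fell by 0.66 ± 0.12 SE on the log2 scale (edgeR adjusted p = 0.00318).

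Of 4 other ligand genes tested, Dlk2, a Delta-like protein that lacks the usual receptor-binding domain, fell and Dner, a neuronal ligand-like protein, rose. Dlk2 was at 0.0825, 0.141 and 0.262 CPM in conduit libraries and 3.03, 4.30 and 2.49 CPM in untreated libraries (log2 fold change -4.31 ± 0.50 SE, edgeR adjusted p = 0.000473). Dner was low in both groups, at 1.75 to 3.08 CPM in conduit libraries and 0.414 to 0.692 CPM in untreated libraries (2.03 ± 0.38 SE, edgeR adjusted p = 0.00393).

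Among 11 corepressor genes 3 rose and 2 fell, beside 24% higher and 26.2% lower over all genes tested. The Groucho-type corepressor Tle1, which partners Hes proteins, was at 44.0, 37.8 and 36.1 CPM in conduit libraries and 15.7, 16.0 and 14.6 CPM in untreated libraries (1.35 ± 0.13 SE, edgeR adjusted p = 0.000203). Spen, which represses at RBPJ sites, rose (0.85 ± 0.13 SE, edgeR adjusted p = 0.00171), and Tle4 fell (-0.90 ± 0.18 SE, edgeR adjusted p = 0.00475). Spen did not pass with unfiltered FPKM in limma (adjusted p = 0.0892). Of 15 trafficking and turnover genes 5 rose and 3 fell, beside the same shares of all genes. Mib2, a ubiquitin ligase that promotes ligand uptake (0.92 ± 0.12 SE, edgeR adjusted p = 0.000732), and Dtx3, of the Deltex family (1.14 ± 0.15 SE, 0.000799), rose. Neurl3, of the Neuralized family, fell to 0.933 to 2.46 CPM in conduit libraries, against 6.30 to 13.7 CPM in untreated libraries (-2.64 ± 0.44 SE, edgeR adjusted p = 0.00220).

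Other targets did not follow Hes1 as a group. Nrarp was at 9.79, 10.5 and 12.6 CPM in conduit libraries, against 16.6, 20.8 and 15.7 CPM in untreated libraries, with no overlap (-0.69 ± 0.17 SE, edgeR adjusted p = 0.0136). Leaving out conduit replicate 1 gave an edgeR adjusted p of 0.0619 for Nrarp, and leaving out conduit replicate 2 gave 0.0635, so both end the call, with log2 fold changes of -0.60 and -0.64. The ratio of Hes1 to Nrarp FPKM was 5.38, 4.63 and 4.97 in conduit libraries and 1.36, 1.29 and 2.03 in untreated libraries. It sets a gene called higher over one called lower, so its separation adds nothing to those calls, and it has no test. Hes6, which antagonises Hes1 and is itself not a classical Notch target, was at 25.5, 25.1 and 21.0 CPM in conduit libraries and 14.6, 8.22 and 14.3 CPM in untreated libraries (0.95 ± 0.23 SE, edgeR adjusted p = 0.0124), and did not pass with library totals (0.57, adjusted p = 0.0568) or with unfiltered FPKM in limma (0.56, adjusted p = 0.0811).

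The remaining targets did not pass. Heyl, the mural cell relative of Hey1, was at 7.78 to 13.1 CPM in conduit libraries and 9.76 to 16.0 CPM in untreated libraries (-0.27, edgeR adjusted p = 0.428). Hey2 was at 1.68 to 2.94 CPM in conduit libraries and 2.06 to 3.43 CPM in untreated libraries (-0.43, edgeR adjusted p = 0.330). Hes7 and Hes2 were below 1 CPM in every library, with edgeR adjusted p of 0.191 and 0.767. Hes5, a classical Notch target of neural progenitors, had 0 to 1 counts in conduit libraries and 0 to 3 counts in untreated libraries, and Hes3 had no count in any library. Neither could be tested at this depth.

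**Figure D4:**
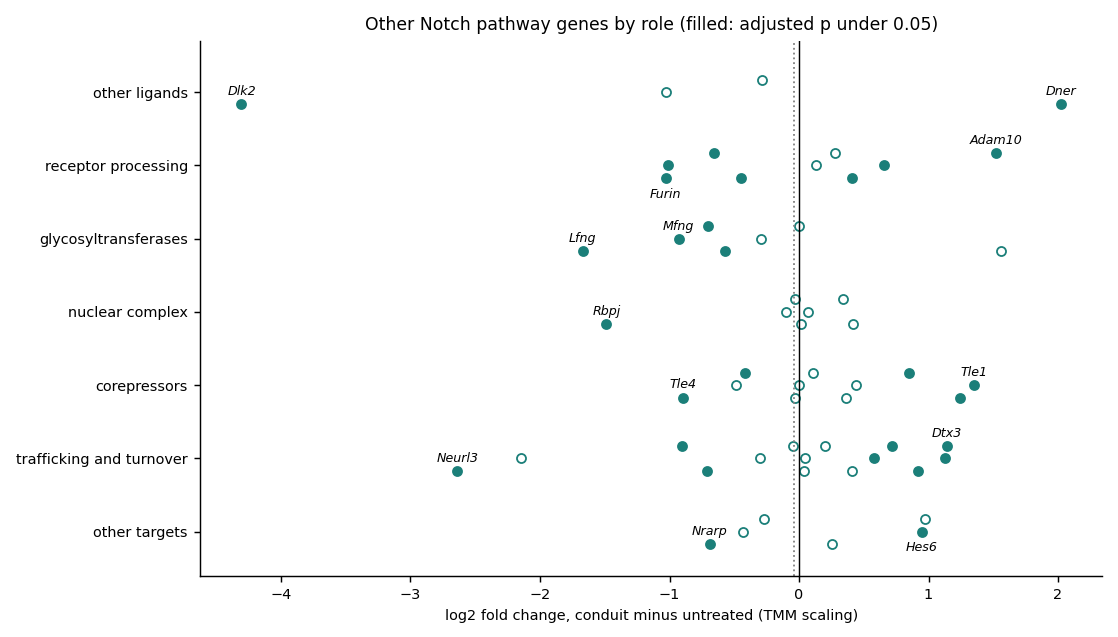
Log2 fold change (conduit minus untreated, TMM scaling, horizontal axis) of the 59 tested pathway genes other than the 10 members, in rows by role. Filled points have an edgeR adjusted p under 0.05 and open points do not. Dots are spread vertically within a row for legibility, and the dotted line is the median of all genes (-0.04). The filled glycosyltransferase points are all below 0. Over all genes tested, 24% were called higher and 26.2% lower.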

How the data were processed

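TRIzol extraction and mRNA enrichment preceded library preparation with the VAHTS Universal V10 kit, per the labels' protocols. Strandedness of the counting is not given in the sources used here, so overlapping or antisense genes may share reads. The submitters' processing notes name HISAT2, HTSeq, fastp, DESeq2 and the build mRatBN7.2, without versions, roles or order. The authors deposited raw counts per gene and FPKM per library, and library titles gave the groups. The deposited FPKM equalled count over gene length and library total in 20504 of 20504 genes checked (tolerance 0.0001).

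Counts were tested with edgeR 4.0.16 in R 4.3.3 (quasi-likelihood F test, two-sided, TMM, filterByExpr with minimum count 10, group as the only term), with Benjamini-Hochberg adjustment over 15464 genes and 0.05 as threshold. SE is the log2 fold change over the square root of F. Alternatives were RLE scaling, scaling by totals, DESeq2 1.42.0, a replicate block, no low-count filter, a minimum of 5 CPM in 3 libraries, each library left out, and limma 3.58.1 on log2(FPKM + 1) over genes reaching 0.5 FPKM in 3 libraries, also with 0.1 as pseudocount or unfiltered.

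The members and lists were chosen with earlier results of these data known. The naming rule takes all members, up to 3 called genes with the smallest adjusted p per pathway role, and all other targets. Of the other marker lists, fibroblast had 2 genes higher and 1 lower of 8 tested, perineurial 4 higher and 0 lower of 4, T cell 0 higher and 7 lower of 8, and skeletal muscle 1 higher and 6 lower of 9.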

Additional observations from a re-analysis of the deposited data

How the results depend on the processing

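Hes1 kept its direction and call under all 15 alternatives, and Notch2 under 11. DESeq2, RLE scaling, no low-count filter and the filter of 5 CPM called the same number of members, 2 higher and 0 lower. With library totals 2291 genes were higher and 6554 lower over the whole table. Limma on log2(FPKM + 1), on log2(FPKM + 0.1) and without a filter gave 2044, 2034 and 2254 higher, and 6020, 6016 and 6263 lower. Under library totals and all 3 limma settings, 1 member was higher and 1 lower, and 8, 8, 8 and 7 other pathway genes were higher. In that order of settings, log2 fold changes of opposite sign to the TMM values were found for Notch1 (-0.13, -0.11, -0.13 and -0.11), Jag1 (-0.33, -0.25, -0.29 and -0.25), Jag2 (-0.15, -0.17, -0.20 and -0.17), Dll1 (-0.31, -0.18, -0.24 and -0.18), Dll4 (-0.29, -0.26, -0.36 and -0.26) and Hes2 (-0.12, -0.079, -0.32 and -0.079), none of them called. The deposited FPKM are scaled by library totals as well, so these settings share that scaling and are not separate checks of direction. Library totals moved the median of all genes by -0.39 on the log2 scale. Why library totals and TMM differ was not tested. With single libraries left out, values ran from -0.30 to 0.14 for Notch3, -0.12 to 0.23 for Jag1, -0.036 to 0.50 for Jag2, -0.19 to 0.50 for Dll1, -0.25 to 0.35 for Dll4, -0.22 to 0.13 for Hey1 and -0.68 to 0.61 for Hes2, with no call. The number of members lower ran from 0 to 1, the 1 being Notch4 without untreated replicate 3. With the replicate number as a block, 3622 genes were higher and 3892 lower, with 2 members higher and 0 lower. Same-numbered libraries deviated from their group means with correlations of 0.144, -0.028 and 0.064. Libraries of unlike number were not compared, so these values do not settle whether same-numbered libraries share more than a number. Depth was similar in all libraries, and Dll3, Hes3 and Hes5 did not pass the low-count filter.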
